A study of Homo sapiens with 30 samples.

Results

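The 6 libraries described here, of 30 in the series, come from BEAS-2B cells that were exposed once to smoke from tobacco shisha heated on charcoal and lysed 24 h or 2 h later, in 3 wells at each time. They were taken by their labels alone, and the question was what changed in these cells between 2 h and 24 h after the exposure. BEAS-2B is an immortalised line of human bronchial epithelial cells. Every exposed group of the series was treated for 30 min on a rocker, at the highest concentration that the submitters found free of toxicity at 24 h by release of lactate dehydrogenase. The groups were tobacco shisha on charcoal at 24 h and 2 h, herbal (non-tobacco) shisha on charcoal at 24 h and 2 h, charcoal with no shisha at 24 h and 2 h, tobacco shisha on an electronic heater at 24 h and 2 h, and control wells at 24 h and 2 h, with 3 wells in each of the 10 groups. The control wells are labelled internal control, and how they were handled during the exposure is not described further in the sources used here. All wells hold 1 cell line, without the mucus, ciliated cells or immune cells of an airway, and nothing says that wells came from separate cultures, so p-values measure the spread between wells.

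Cells answer an abrupt stimulus in waves. Immediate early genes, which encode transcription factors such as the FOS, JUN, EGR and NR4A families, are switched on without new protein synthesis through serum response factor and CREB, and their short-lived mRNAs are removed soon after, with the help of feedback inhibitors that the same signals induce. Slower programmes follow: electrophiles and oxidants in smoke release the transcription factor NRF2 from KEAP1 and raise detoxifying enzymes, aromatic hydrocarbons activate the AHR receptor, damaged proteins raise chaperones and proteasome subunits, and low oxygen stabilises HIF, which raises glycolytic genes.

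RNA was sequenced from Illumina TruSeq libraries, and the authors' values are FPKM, fragments per kilobase of transcript scaled to the mapped reads. Of 22538 gene names, 8531 reached 1 FPKM in 3 or more of the 30 libraries and were tested. Each of the 6 libraries had 7598 to 7785 genes at 1 FPKM or more and an estimated 24700000 to 38800000 reads. Replicate wells correlated at 0.986 to 0.990 within the 24 h group and at 0.989 to 0.991 within the 2 h group (Pearson's r across genes, which are not independent, on log2(FPKM + 1)), against 0.961 to 0.969 between the groups. Well 1 of the 24 h group was the farthest of its 3 wells from the group in 44.5% of genes, and well 3 of the 2 h group in 47.4%. Calls found to turn on either well are marked below. The keratins of simple epithelium were high, KRT8 at 517 ± 14.8 FPKM at 24 h and 543 ± 35.03 FPKM at 2 h (SD, n = 3 wells each, as throughout). The defining junction gene CDH1 reached at most 0.156 FPKM and EPCAM at most 0.895 FPKM in any of the 30 libraries. KRT5, KRT14 and TP63, also on the epithelial list, reached at most 0.061, 0.076 and 0.012 FPKM. The label therefore rests on KRT8, KRT18 and KRT19 and not on the listed keratins as a whole. Ciliated, secretory and red blood cell markers had no tested gene (of 7, 7 and 6 listed). Of 9 listed immune markers, PTPRC and CD3E were listed at 0 in all 6 libraries, but 2 were tested. These were CD14, at 4.40 FPKM at 24 h and 12.3 FPKM at 2 h, and CD68, at 13.7 FPKM and 8.47 FPKM. Of 7 endothelial markers 1 was tested, EGFL7, at 12.9 FPKM at 24 h and 11.4 FPKM at 2 h. The fibroblast markers tested, 4 of 9, were all lower at 24 h, with a summed level of 193.6 to 267.3 FPKM at 24 h and 282.9 to 299.4 FPKM at 2 h. By their labels all wells hold 1 cell line. In bulk RNA, fewer cells expressing a marker and less of its RNA per cell cannot be told apart.

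Between 2 h and 24 h, 4726 of the 8531 genes changed (55.4% of those tested; limma on log2(FPKM + 1), Benjamini-Hochberg adjusted p below 0.05), 3365 of them higher at 24 h (39.4%) and 1361 lower (16.0%). Changes are given as log2 units of FPKM + 1, at 24 h minus 2 h, a scale that understates the change of low genes. The larger changes ran the other way: 39 genes were higher by at least 2-fold (0.457%) and 183 were lower by at least 2-fold (2.15%). The median change of all genes was 0.12 log2 units, and after each library was rescaled by the median of its ratios to the average library this median was 0.01 and the calls stood at 2050 higher and 2112 lower. Small rises therefore depend on the scaling, and each list's counts for the change over time after rescaling are given below where they differ. The 3 wells at 24 h lay wholly above the 3 at 2 h in 3587 genes (42.0%) and wholly below them in 1456 (17.1%). In the control wells, 1440 genes changed between the same times (16.9%), 635 higher at 24 h (7.44%) and 805 lower (9.44%).

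**Figure D1:**
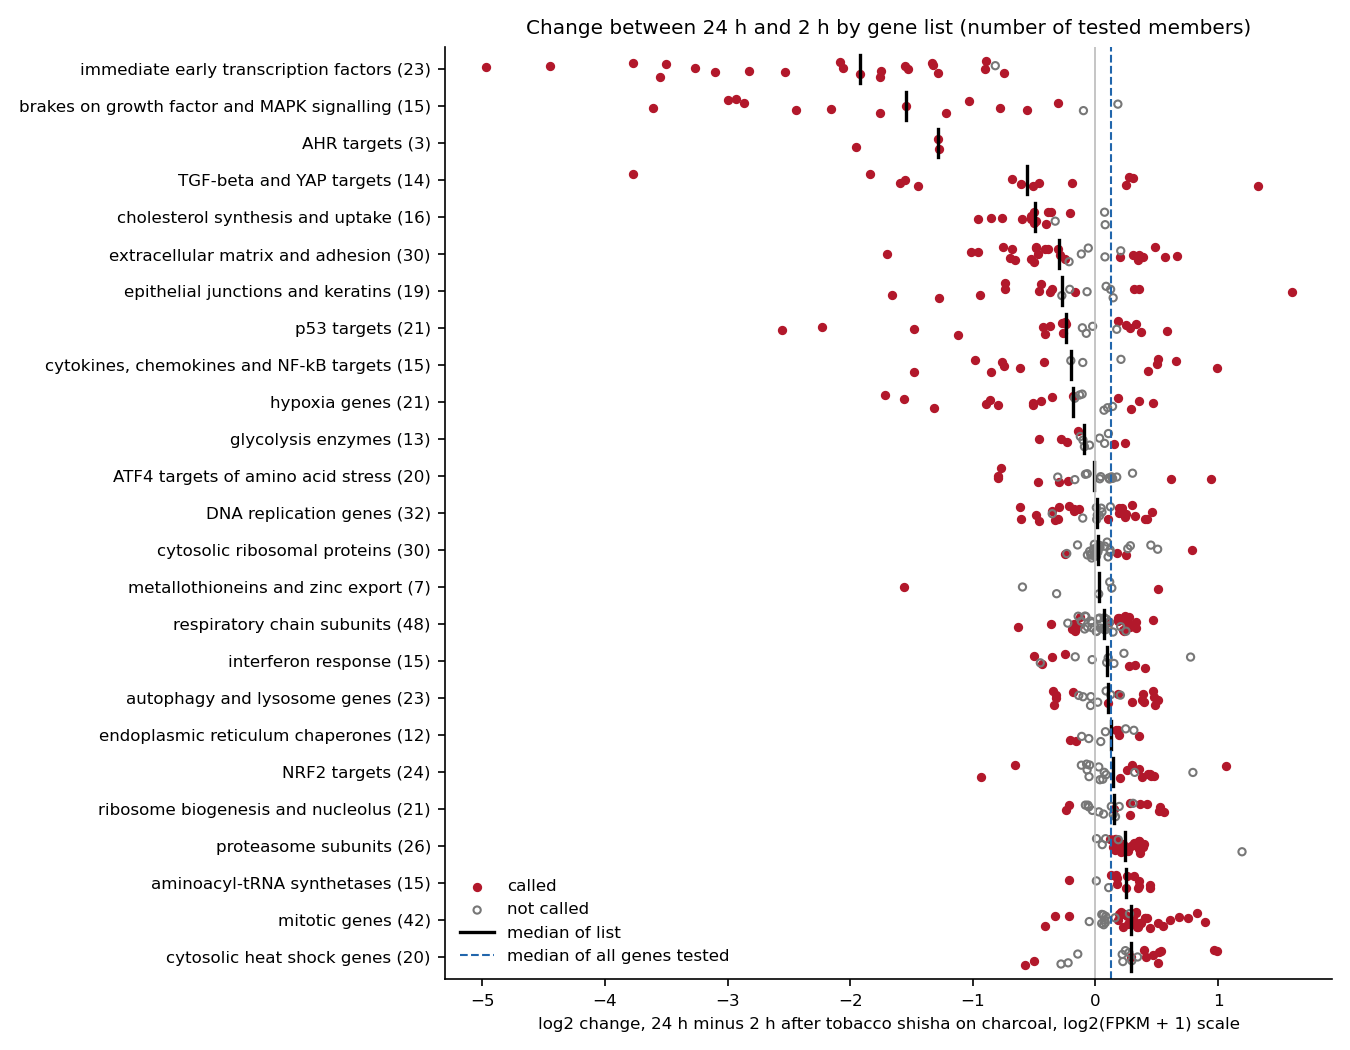
Change between 24 h and 2 h after tobacco shisha on charcoal (x axis, log2 difference of FPKM + 1; right of 0 is higher at 24 h) for the tested members of 25 gene lists (rows, ordered by their median). Each circle is 1 gene, red when called and open when not, the black bar is the list's median and the dashed line the median of all genes tested, 0.12; immediate early genes and the brakes on growth factor signalling lie farthest to the left, with medians of -1.92 and -1.54.

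Immediate early transcription factors made up the deepest fall. Of 32 listed genes 23 were tested, 22 fell and none rose, beside 16.0% and 39.4% of all genes. The median change was -1.92, beside 0.12 for all genes. NR4A1, an orphan nuclear receptor of the NR4A family (chr12:52022832-52059503), had 0.935, 0.986 and 0.7397 FPKM in the 24 h wells, against 66.8, 53.4 and 55.03 FPKM in the 2 h wells. The 24 h wells lay together far below all 2 h wells, and the change was -4.97 (SE 0.24, adjusted p = 9.49e-13). HES1, the repressor that Notch signalling induces, had 1.86, 1.22 and 0.947 FPKM in the 24 h wells, against 67.97, 37.03 and 47.7 FPKM in the 2 h wells, a change of -4.45 (SE 0.25, adjusted p = 5.91e-12). ATF3, a stress-induced factor of the ATF and CREB family, had 2.06, 2.62 and 3.34 FPKM in the 24 h wells, against 60.9, 34.01 and 55.3 FPKM in the 2 h wells, a change of -3.77 (SE 0.27, adjusted p = 1.71e-10). EGR1, a zinc-finger factor, had 0.925, 1.58 and 1.84 FPKM in the 24 h wells, against 28.7, 16.7 and 22.9 FPKM in the 2 h wells, a change of -3.27 (SE 0.22, adjusted p = 7.63e-11). None of these genes had overlapping wells, and the 2 h wells of each differed among themselves by less than they differed from the 24 h wells.

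Partners in the AP-1 complex fell less far than NR4A1. JUNB had 17.9, 17.7 and 13.7 FPKM in the 24 h wells, against 148, 116 and 105 FPKM in the 2 h wells, a change of -2.83 (SE 0.12, adjusted p = 7.16e-14). FOS, the classic partner of JUN, stood at a low level in both groups, 0.288, 0.312 and 0.491 FPKM in the 24 h wells, against 6.14, 3.43 and 5.102 FPKM in the 2 h wells, and its change was -2.09 (SE 0.29, adjusted p = 2.52e-06). The homeobox factor DLX2 averaged 1.45 ± 0.347 FPKM at 24 h and 27.7 ± 3.64 FPKM at 2 h. KLF10, a zinc-finger factor that TGF-beta induces, averaged 12.1 ± 0.151 FPKM at 24 h and 112 ± 17.2 FPKM at 2 h. EGR3, a relative of EGR1, had 0.0286, 0.0264 and 0 FPKM in the 24 h wells, against 13.7, 8.601 and 9.88 FPKM in the 2 h wells, with 1 of the 24 h wells listed at 0. KLF6 was the member not called: it had 12.2, 13.2 and 11.5 FPKM in the 24 h wells, against 37.6, 7.58 and 37.6 FPKM in the 2 h wells, so 1 of its 2 h wells lay below all 24 h wells.

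Promoter sequences of EGR1 and DUSP1 are shown because their letters hold the sites through which serum response factor and CREB are known to act on immediate early genes. Each is the 250 bases before the gene's start from RefSeq (GRCh38.p14), written 5′ to 3′ on the gene's strand, at chr5:138465229-138465478 on the plus strand for EGR1 and chr5:172771196-172771445 on the minus strand for DUSP1. Capitals mark the CArG boxes, which start 105 and 83 bases before the start of EGR1, and the cAMP response element TGACGTCA, 125 bases before the start of DUSP1.
EGR1: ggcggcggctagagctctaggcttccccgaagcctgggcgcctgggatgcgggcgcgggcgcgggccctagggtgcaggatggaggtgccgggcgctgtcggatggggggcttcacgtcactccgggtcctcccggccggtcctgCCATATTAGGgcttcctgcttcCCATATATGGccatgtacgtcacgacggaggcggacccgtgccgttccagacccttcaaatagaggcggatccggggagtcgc
DUSP1: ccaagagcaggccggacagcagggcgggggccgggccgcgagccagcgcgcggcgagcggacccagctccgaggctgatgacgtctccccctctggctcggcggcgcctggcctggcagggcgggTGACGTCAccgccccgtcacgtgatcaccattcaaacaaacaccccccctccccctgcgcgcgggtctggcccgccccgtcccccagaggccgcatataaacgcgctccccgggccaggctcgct
Among 20 of the 23 tested immediate early genes with a promoter in the table, the CArG box occurred in 2, EGR1 and SRF (10%, against 1.14% of all 27305 promoters and 0.91% of those of tested genes), and TGACGTCA in 2, JUND and MAFF (10%, against 1.77% and 3.08%), reading both strands. The AP-1 site TGANTCA occurred in none of the 20, against 6.60% of all promoters and 3.80% of those of tested genes. These are matches of letters within a short window and no measure of binding.

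Feedback brakes on the same signals fell with them. Of 15 tested genes in this list 13 fell and none rose, beside 16.0% and 39.4% of all genes, with a median of -1.54. In control wells 6 fell and none rose, beside 9.44% and 7.44% of all genes, with a median of -0.31. The test of the difference from the controls called 9 lower and 2 higher, beside 10.8% and 30.3% of all genes. After rescaling it called 12 lower and 1 higher. DUSP5, a nuclear phosphatase of ERK, had 5.87, 3.98 and 4.06 FPKM in the 24 h wells, against 71.5, 58.7 and 71.4 FPKM in the 2 h wells, a change of -3.61 (SE 0.21, adjusted p = 5.97e-12). DUSP1, the phosphatase whose promoter is printed above, had 28.5, 24.4 and 24.1 FPKM in the 24 h wells, against 205, 185 and 188 FPKM in the 2 h wells, a change of -2.86 (SE 0.18, adjusted p = 2.76e-11). The 24 h and 2 h wells of both phosphatases were far apart. ERRFI1, an inhibitor of the EGF receptor, had 15.01, 12.2 and 12.3 FPKM in the 24 h wells, against 98.7, 114 and 124 FPKM in the 2 h wells, a change of -3.0 (SE 0.26, adjusted p = 2.85e-09). SPRY4, a Sprouty protein that dampens receptor tyrosine kinases, averaged 1.57 ± 0.524 FPKM at 24 h and 18.4 ± 0.186 FPKM at 2 h, and ZFP36, which speeds the decay of AU-rich mRNAs, averaged 4.92 ± 0.225 FPKM and 18.98 ± 1.31 FPKM at the same times. DUSP10 (change -0.10) and SPRED3 (change 0.18) were the members not called over time, and theirs were the higher differences from the controls. Among the largest falls outside these lists, LBH, a transcriptional cofactor, averaged 6.104 ± 1.15 FPKM at 24 h and 60.2 ± 6.14 FPKM at 2 h, and RGS4, which shortens signalling by G proteins, averaged 2.47 ± 0.6403 FPKM and 28.3 ± 2.93 FPKM.

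**Figure D2:**
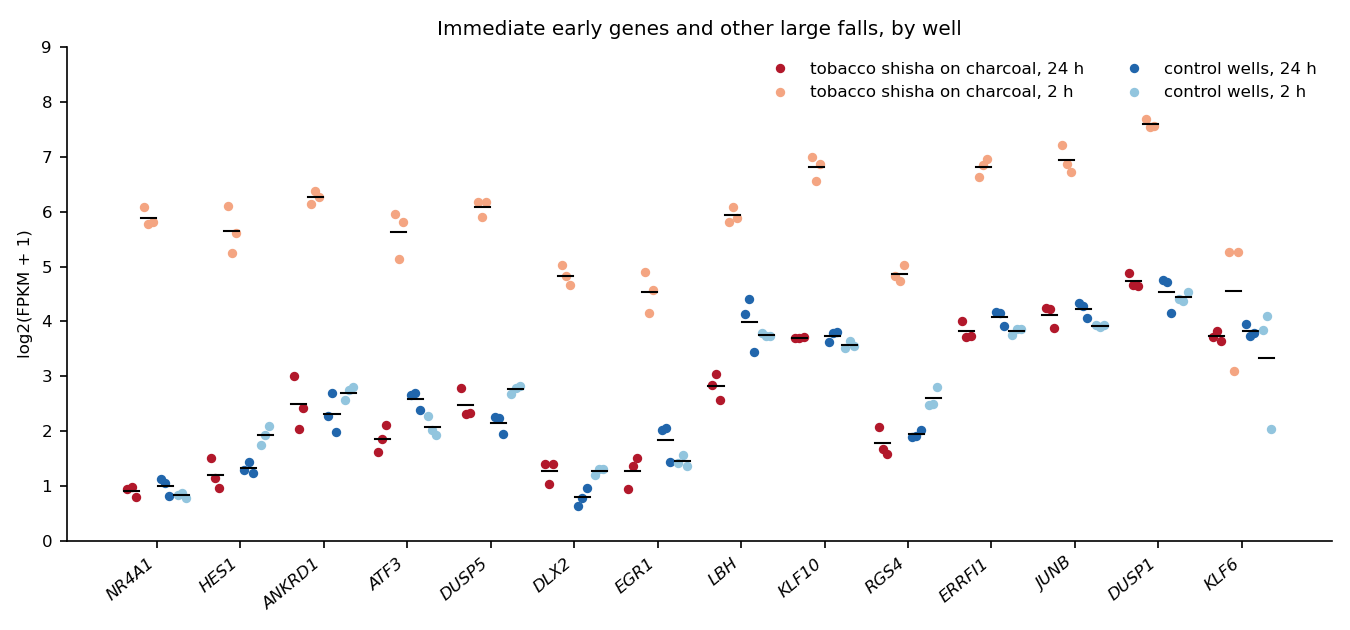
Level of 14 genes, as log2(FPKM + 1), in the wells at 24 h and 2 h after tobacco shisha on charcoal and in the control wells at 24 h and 2 h; dots are wells and bars are means of 3 wells on that scale. The wells at 2 h after the exposure stand apart from the other groups for NR4A1, HES1, ATF3, DUSP5 and EGR1, while KLF6 has 1 low well at 2 h.

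The fall brought these genes to about the level of control wells of the same age. In control wells NR4A1 averaged 1.002 ± 0.221 FPKM at 24 h and 0.784 ± 0.0581 FPKM at 2 h, so its 24 h level after tobacco shisha on charcoal differed from the 24 h controls by -0.08 (SE 0.24, adjusted p = 0.815) and its 2 h level differed from the 2 h controls by 5.05 (SE 0.24, adjusted p = 6.74e-13). The change over time in exposed wells was set against that in control wells by a test of the difference (the exposed wells' log2 change minus that of the controls), which called 3502 genes (41.1%), 2582 with a higher change after the exposure (30.3%) and 920 with a lower one (10.8%). Of the 23 immediate early genes 21 had a lower change and none a higher one, IER5 and KLF6 being the exceptions. Set against the 24 h controls alone, 3796 genes differed (44.5%), 2206 higher (25.9%) and 1590 lower (18.6%), while of the 23 immediate early genes 2 were lower. Those were ATF3, at 2.67 FPKM 24 h after the exposure and 5.01 FPKM in 24 h controls, and EGR1, at 1.45 FPKM and 2.65 FPKM. Neither call held without well 1 or well 2 of the exposed group or of the controls, with adjusted p up to 0.133 for ATF3 and 0.199 for EGR1. At 2 h, 3001 genes differed from the 2 h controls (35.2%), 725 higher (8.50%) and 2276 lower (26.7%), and 21 of the 23 immediate early genes were higher. The comparisons at 24 h and at 2 h each share exposed wells with the change over time, so their values stand side by side and do not back each other.

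Inflammatory mediators split. Of 15 tested genes in the cytokine and NF-kappaB list 5 rose, 7 fell and 3 were not called, with a median of -0.20. The share of rises was near the 39.4% of all genes and that of falls above the 16.0%. After rescaling 5 rose and 8 fell. IL6 had 7.85, 9.404 and 7.89 FPKM in the 24 h wells, against 16.6, 19.7 and 16.3 FPKM in the 2 h wells, a change of -0.98 (SE 0.12, adjusted p = 7.78e-07), and the wells did not overlap. CXCL8, the neutrophil chemokine, had 139.7, 106 and 97.7 FPKM in the 24 h wells, against 116, 133 and 117 FPKM in the 2 h wells, a change of -0.10 (SE 0.10, adjusted p = 0.417) that was not called, although without well 1 of the 24 h group it was -0.25 (adjusted p = 0.0303). Its level at 24 h stayed above the 24 h controls, which averaged 61.4 ± 0.969 FPKM, by 0.87 (SE 0.10, adjusted p = 8.05e-07). CXCL1, a related chemokine, had 45.1, 42.03 and 40.7 FPKM in the 24 h wells, against 26.8, 29.3 and 23.9 FPKM in the 2 h wells, a change of 0.66 (SE 0.07, adjusted p = 3.47e-08) in the direction opposite to IL6. BIRC3, an NF-kappaB target that restrains cell death, rose by 0.99 (SE 0.09, adjusted p = 5.52e-09). IL11, a cytokine of the IL-6 family, had 17.3, 6.53 and 6.43 FPKM in the 24 h wells, against 27.5, 28.1 and 25.6 FPKM in the 2 h wells, so well 1 at 24 h held more than the other 2 wells of its group. Its change was -1.48 (SE 0.28, adjusted p = 0.000128), and at 24 h it remained above the 24 h controls by 1.34 (SE 0.28, adjusted p = 0.000536).

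In the AHR list all 3 tested genes fell, beside 16.0% of all genes. CYP1B1, a cytochrome P450 that oxidises aromatic hydrocarbons, had 3.31, 7.35 and 6.995 FPKM in the 24 h wells, against 23.3, 28.3 and 22.5 FPKM in the 2 h wells, a change of -1.95 (SE 0.21, adjusted p = 5.33e-08). TIPARP, the ADP-ribosyltransferase that limits AHR signalling, had 23.9, 23.8 and 21.96 FPKM in the 24 h wells, against 60.6, 57.1 and 56.7 FPKM in the 2 h wells, a change of -1.29 (SE 0.11, adjusted p = 2.85e-09). NEDD9, a scaffold protein of focal adhesions, changed by -1.28 (SE 0.15, adjusted p = 2.59e-07). At 24 h CYP1B1 averaged 5.89 ± 2.24 FPKM after the exposure and 5.59 ± 0.832 FPKM in 24 h controls, a difference of 0.01 (SE 0.21, adjusted p = 0.972). CYP1B1 fell in control wells too, from 11.9 FPKM at 2 h, a change of -0.98 (adjusted p = 0.00194). The change in exposed wells differed from that in control wells by -0.98 (SE 0.29, adjusted p = 0.00979). TIPARP still stood above the 24 h controls, by 0.50 (SE 0.11, adjusted p = 0.000768).

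Most NRF2 targets stood above the controls at 24 h, while their share that rose over time was near that of all genes. Of 24 tested genes 10 rose and 2 fell, beside 39.4% and 16.0% of all genes, with a median of 0.14 that lies next to the 0.12 of all genes, and after rescaling 8 rose and 6 fell. NQO1, the quinone reductase used as the marker of NRF2 activity (chr16:69709401-69726560), had 159.7, 138 and 124 FPKM in the 24 h wells, against 67.95, 65.5 and 65.4 FPKM in the 2 h wells, a change of 1.06 (SE 0.07, adjusted p = 1.27e-10). In control wells it had 40.3, 40.1 and 36.8 FPKM at 24 h, against 64.3, 64.2 and 69.9 FPKM at 2 h, so the controls fell while the exposed wells rose, and the changes differed by 1.81 (SE 0.10, adjusted p = 3.8e-11). PRDX1, a peroxide-reducing enzyme, averaged 356 ± 19.7 FPKM at 24 h and 264 ± 12.2 FPKM at 2 h, a change of 0.43 (SE 0.05, adjusted p = 2.44e-07). GCLM, the modifier subunit of the enzyme that limits glutathione synthesis, had 21.5, 18.2 and 18.99 FPKM in the 24 h wells, against 14.2, 14.1 and 16.1 FPKM in the 2 h wells, a change of 0.38 (SE 0.09, adjusted p = 0.00114).

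Members of the list that fell were TXNRD1 and OSGIN1. TXNRD1, the thioredoxin reductase, had 142, 142 and 142 FPKM in the 24 h wells, against 212, 229 and 233 FPKM in the 2 h wells, a change of -0.66 (SE 0.07, adjusted p = 3.03e-08), and OSGIN1, an oxidative stress-induced growth inhibitor, changed by -0.94 (SE 0.20, adjusted p = 0.000309). SRXN1, which repairs peroxiredoxins, was not called, at 59.6 ± 5.15 FPKM at 24 h and 62.6 ± 1.44 FPKM at 2 h (change -0.07 (SE 0.06, adjusted p = 0.286)). AKR1C3, an aldo-keto reductase with near-identical relatives among which short reads are uncertain, was not called either, with a change of 0.04 (SE 0.14, adjusted p = 0.836). Set against the 24 h controls, 18 of the 24 were higher and 1 was lower, beside 25.9% and 18.6% of all genes, and rescaling left 17 higher and 1 lower. The GCLM promoter is printed as an example of the antioxidant response element TGACNNNGC, which 6 of 19 members with a promoter held on either strand (31.6%, against 11% of all promoters). The capitals mark it on the opposite strand, 34 bases before the start, in chr1:93909431-93909680 (GRCh38.p14, minus strand, RefSeq).
GCLM: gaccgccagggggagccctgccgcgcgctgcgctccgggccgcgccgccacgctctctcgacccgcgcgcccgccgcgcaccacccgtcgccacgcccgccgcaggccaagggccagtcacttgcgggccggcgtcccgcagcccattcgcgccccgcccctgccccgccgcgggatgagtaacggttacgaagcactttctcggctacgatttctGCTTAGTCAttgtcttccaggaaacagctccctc

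Genes of the HSP90 system were among the rises. Of 20 tested heat shock genes 9 rose and 2 fell, with a median of 0.29 (8 and 2 after rescaling). These shares lie near the 39.4% and 16.0% of all genes, so the counts do not set the list apart. HSP90AA1, the inducible cytosolic HSP90, had 292, 357 and 287 FPKM in the 24 h wells, against 148, 144 and 187 FPKM in the 2 h wells, a change of 0.97 (SE 0.19, adjusted p = 0.00016). FKBP4, an HSP90 co-chaperone, averaged 58.5 ± 9.17 FPKM at 24 h and 28.7 ± 3.03 FPKM at 2 h, a change of 1.00 (SE 0.15, adjusted p = 8.13e-06). The co-chaperones AHSA1 and STIP1 changed by 0.52 (SE 0.10, adjusted p = 0.000107) and 0.41 (SE 0.07, adjusted p = 1.4e-05). HSPA1A and its near-identical copy HSPA1B, between which reads cannot be split with certainty, were not called (changes 0.22 and 0.24). For both, all 24 h wells lay above all 2 h wells. In limma's fit of the 24 h and 2 h groups alone HSPA1A was called (adjusted p = 0.0488). DNAJB1, a co-chaperone of HSP70, and CRYAB, a small heat shock protein, were the members that fell, with changes of -0.50 (SE 0.20, adjusted p = 0.0419) and -0.57 (SE 0.17, adjusted p = 0.00665). With any 1 of the 6 libraries left out 1 of them or, without well 3 of the 2 h group, none was called.

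Of 26 tested proteasome subunits 21 rose and none fell, beside 39.4% and 16.0% of all genes, with a median of 0.24. After rescaling 12 rose and 2 fell. PSMD3, a lid subunit, had 179, 158 and 151 FPKM in the 24 h wells, against 122, 129 and 118 FPKM in the 2 h wells, a change of 0.40 (SE 0.06, adjusted p = 3.66e-06), and PSMC4, an ATPase of the base, changed by 0.35 (SE 0.04, adjusted p = 4.98e-07). The rises were small, and most subunits shared them only before rescaling. In control wells 1 subunit rose and 4 fell over the same time, beside 7.44% and 9.44% of all genes. At 24 h after the exposure 25 of the 26 exceeded the 24 h controls, 24 after rescaling, beside 25.9% of all genes before it. None was lower. PSMC1 was the subunit not called there, listed at 0 in 2 of the 24 h wells and in all 2 h wells. Chaperones of the endoplasmic reticulum were mixed: 4 of 12 tested rose and 2 fell, near the 39.4% and 16.0% of all genes, but after rescaling 1 rose and 4 fell. HSPA5, the main one, had 208 ± 16.7 FPKM at 24 h and 224 ± 8.45 FPKM at 2 h, a change of -0.11 (SE 0.06, adjusted p = 0.11), which rescaling turned into a call at -0.25 (adjusted p = 0.00185). Without well 1 of the 24 h group the change of HSPA5 was also called, at -0.18 (adjusted p = 0.0182). CANX, the lectin chaperone calnexin, rose by 0.35 (SE 0.05, adjusted p = 1.41e-06).

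**Figure D3:**
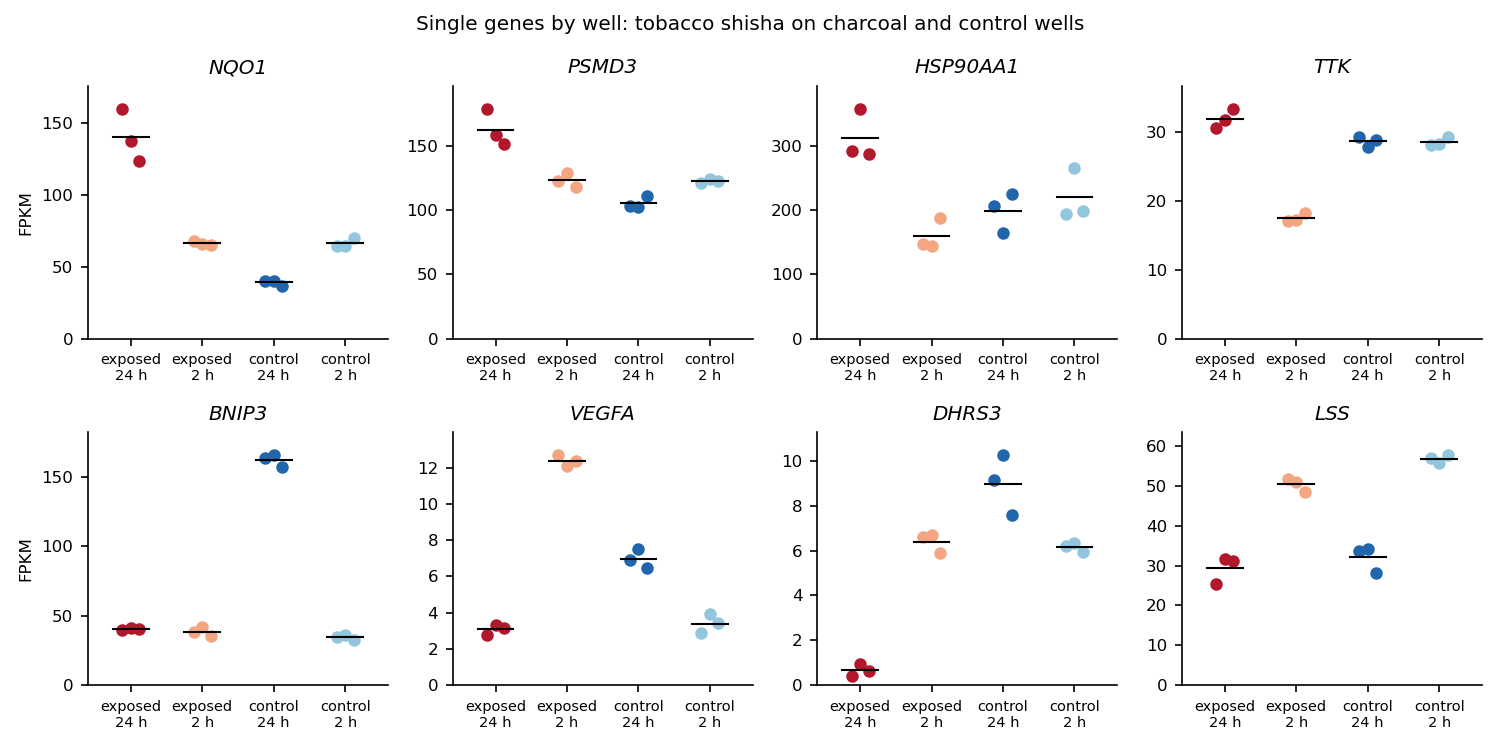
FPKM of 8 genes in the wells at 24 h and 2 h after tobacco shisha on charcoal and in the control wells at 24 h and 2 h; dots are wells and bars are means of 3 wells. NQO1, PSMD3 and HSP90AA1 are highest at 24 h after the exposure, BNIP3 is highest in the 24 h controls at a mean of 162, and VEGFA is highest at 2 h after the exposure.

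Hypoxia genes departed from the control time course. After tobacco shisha on charcoal 4 of 21 tested genes rose and 11 fell, beside 39.4% and 16.0% of all genes. Their median change was -0.18. In control wells 17 rose and none fell between the same times, beside 7.44% and 9.44% of all genes. After rescaling 2 rose and 14 fell in the exposed wells, and without well 1 of the 24 h group 7 fell. The test of the difference called 20 of the 21 lower after the exposure and none higher, beside 10.8% and 30.3% of all genes. BNIP3, a mitophagy receptor and HIF target (chr10:131967684-131981923), had 39.5, 41.3 and 40.5 FPKM in the 24 h wells, against 38.3, 41.7 and 35.6 FPKM in the 2 h wells, which overlapped and gave no call (0.07 (SE 0.09, adjusted p = 0.52)). Control wells had 164, 166 and 158 FPKM at 24 h, against 34.9, 36.4 and 32.6 FPKM at 2 h, and the changes differed by -2.13 (SE 0.12, adjusted p = 3.8e-11).

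VEGFA, the vascular growth factor, had 2.73, 3.33 and 3.16 FPKM in the 24 h wells, against 12.7, 12.1 and 12.3 FPKM in the 2 h wells, a change of -1.72 (SE 0.12, adjusted p = 1.41e-10), and its 24 h level lay -0.97 log2 units from that of the 24 h controls (6.97 ± 0.527 FPKM). NDRG1, a stress-induced HIF target, averaged 10.4 ± 0.966 FPKM at 24 h and 15.2 ± 0.257 FPKM at 2 h after the exposure, and 42.2 ± 2.84 FPKM and 13.9 ± 1.35 FPKM in control wells at those times. Its own change was called at adjusted p = 0.0494 but not once any 1 of the 6 libraries was left out (0.0527 to 0.128), while the difference from the controls was -2.05 (SE 0.31, adjusted p = 1.85e-05). SLC2A1, the glucose transporter, changed by -0.80 (SE 0.07, adjusted p = 6.23e-09) in the exposed wells, and BHLHE41, a repressor of the circadian clock, by -1.56 (SE 0.14, adjusted p = 5.08e-09). At 24 h, 19 of the 21 genes lay below the 24 h controls and 1 above, beside 18.6% and 25.9% of all genes. The one above was ADM, which encodes the vasodilator adrenomedullin, at 65.04, 69.5 and 69.3 FPKM 24 h and 172, 173 and 167 FPKM 2 h after the exposure.

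The BNIP3 promoter is printed because it holds the core of the hypoxia response element, ACGTG, on both strands in overlapping letters, 134 and 133 bases before the start (capitals). It lies at chr10:131981924-131982173 (GRCh38.p14, minus strand, RefSeq).
BNIP3: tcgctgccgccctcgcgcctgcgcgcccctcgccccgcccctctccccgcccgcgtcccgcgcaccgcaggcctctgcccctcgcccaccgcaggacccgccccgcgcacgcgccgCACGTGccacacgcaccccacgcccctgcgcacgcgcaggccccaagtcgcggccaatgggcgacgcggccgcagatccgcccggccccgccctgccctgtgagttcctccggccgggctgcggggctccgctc
The core occurred in 8 of 17 members with a promoter (47.1%, against 18.7% of all promoters and 23.8% of those of tested genes). 

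Glycolysis genes differed from the controls in the same direction. After the exposure 2 of 13 rose and 4 fell, beside 39.4% and 16.0% of all genes. In control wells 11 rose and none fell, beside 7.44% and 9.44% of all genes. The test of the difference called 10 lower and 1 higher, beside 10.8% and 30.3% of all genes. After rescaling none rose and 5 fell, and without well 2 of the 2 h group 2 fell. HK2, the inducible hexokinase, averaged 3.36 ± 0.317 FPKM at 24 h and 4.28 ± 0.377 FPKM at 2 h after the exposure, and 10.1 ± 0.816 FPKM and 3.12 ± 0.388 FPKM in control wells. PFKL, the liver-type phosphofructokinase, fell, with a change of -0.46 (SE 0.09, adjusted p = 0.000187). GPI and LDHB, the isomerase and the B subunit of lactate dehydrogenase, rose by 0.15 and 0.24, and rescaling ended both calls. PGK1, phosphoglycerate kinase, was not called between 216 ± 6.42 FPKM at 24 h and 230.2 ± 9.24 FPKM at 2 h after the exposure, and stood at 395 ± 33.4 FPKM at 24 h and 204 ± 5.38 FPKM at 2 h in control wells.

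**Figure D4:**
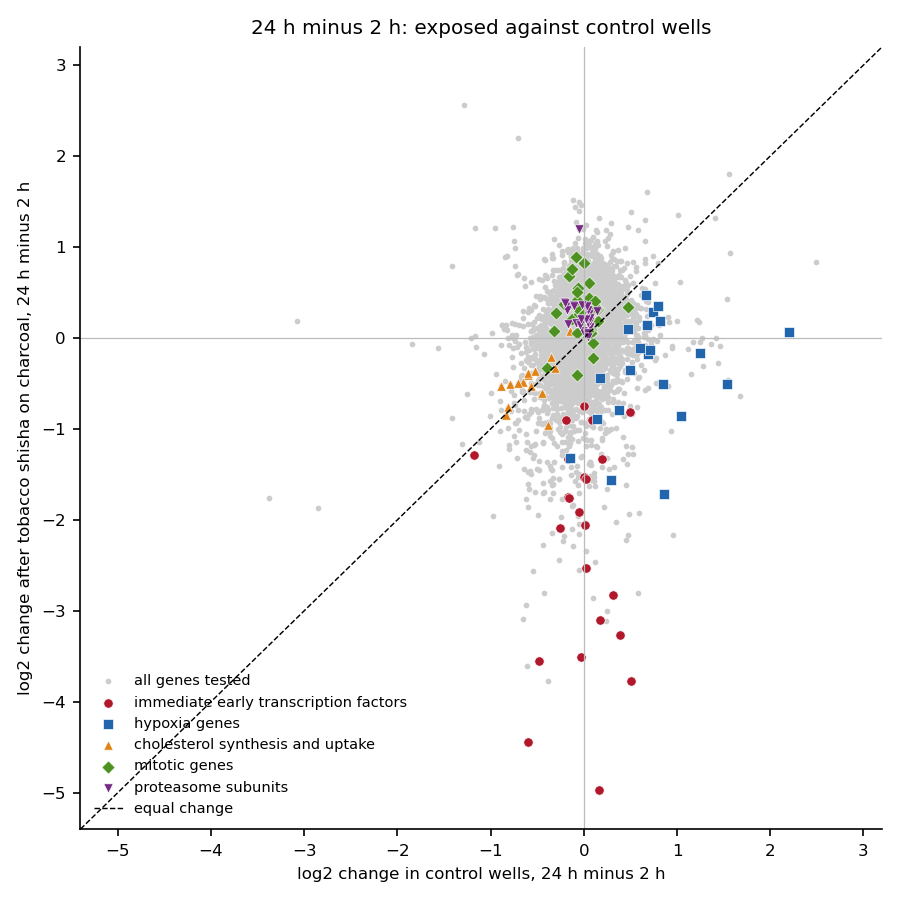
Change between 24 h and 2 h in control wells (x axis) and after tobacco shisha on charcoal (y axis), both as log2 differences of FPKM + 1, for all tested genes, with 5 lists coloured; the diagonal marks equal change. Immediate early genes lie low with little change in the controls, hypoxia genes lie to the right with no matching rise after the exposure, and cholesterol genes lie near the diagonal.

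Genes of cholesterol synthesis and uptake fell in exposed and control wells. Of 16 tested genes 13 fell and none rose after the exposure, beside 16.0% and 39.4% of all genes. The median was -0.49, and rescaling gave the same counts. In control wells 12 fell and none rose, beside 9.44% and 7.44% of all genes. Without well 3 of either group 1 gene rose. LSS, lanosterol synthase, had 25.4, 31.7 and 31.2 FPKM in the 24 h wells, against 51.8, 50.9 and 48.5 FPKM in the 2 h wells, a change of -0.76 (SE 0.08, adjusted p = 2.89e-08). HMGCS1, which makes the precursor of mevalonate, averaged 26.5 ± 4.37 FPKM at 24 h and 48.1 ± 2.86 FPKM at 2 h, a change of -0.85 (SE 0.16, adjusted p = 7.64e-05), and 37.6 ± 5.41 FPKM and 68.2 ± 11.4 FPKM at those times in control wells. Its change differed from that of the controls by -0.01 (SE 0.22, adjusted p = 0.97). The difference from the controls was higher in 4 of the 16 and lower in 1, beside 30.3% and 10.8% of all genes. After rescaling none was higher and 1 was lower.

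Mitotic genes rose after the exposure. Of 42 tested genes 29 rose and 3 fell, beside 39.4% and 16.0% of all genes, with a median of 0.29. In control wells 1 rose and 1 fell, beside 7.44% and 9.44% of all genes. After rescaling 19 rose and 3 fell, and without well 1 of the 24 h group 31 rose and 1 fell. TTK, the spindle checkpoint kinase (chr6:80004649-80042527), had 30.6, 31.8 and 33.4 FPKM in the 24 h wells, against 17.1, 17.2 and 18.2 FPKM in the 2 h wells, a change of 0.83 (SE 0.05, adjusted p = 1.69e-11). AURKA, the centrosomal Aurora kinase, averaged 121 ± 8.15 FPKM at 24 h and 75.3 ± 1.46 FPKM at 2 h, a change of 0.68 (SE 0.06, adjusted p = 6.66e-09). CDCA8, the borealin subunit of the chromosomal passenger complex, changed by 0.76 (SE 0.06, adjusted p = 1.22e-09), and CCNB1, cyclin B1, by 0.36 (SE 0.07, adjusted p = 7.32e-05). CCNF, cyclin F, which is outside the list, had 12.5, 14.1 and 15.6 FPKM in the 24 h wells, against 5.04, 5.55 and 5.04 FPKM in the 2 h wells, a change of 1.27 (SE 0.09, adjusted p = 1.09e-10), which places it among the 12 largest rises.

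Of 42 mitotic genes the test of the difference from the controls called 23 higher and 2 lower, beside 30.3% and 10.8% of all genes. After rescaling it called 12 higher and 3 lower. At 24 h, 11 of the 42 lay above the 24 h controls and 12 below, beside 25.9% and 18.6% of all genes. The share above was near that of all genes. At 2 h none lay above the 2 h controls and 27 below, beside 8.50% and 26.7% of all genes. For CCNF the mean was 14.05 FPKM 24 h and 5.21 FPKM 2 h after the exposure, and 13.9 FPKM and 14.7 FPKM in control wells. The PLK1 promoter is printed as an example of the cell cycle homology region TTTGAA, known from genes of the G2 phase and mitosis, which 15 of 36 members with a promoter held on either strand (41.7%, against 13.6% of all promoters and 7.79% of those of tested genes). PLK1, the Polo-like kinase, changed by 0.37 (SE 0.08, adjusted p = 0.000606), and the capitals mark the match 29 bases before its start, in chr16:23678639-23678888 (GRCh38.p14, plus strand, RefSeq).
PLK1: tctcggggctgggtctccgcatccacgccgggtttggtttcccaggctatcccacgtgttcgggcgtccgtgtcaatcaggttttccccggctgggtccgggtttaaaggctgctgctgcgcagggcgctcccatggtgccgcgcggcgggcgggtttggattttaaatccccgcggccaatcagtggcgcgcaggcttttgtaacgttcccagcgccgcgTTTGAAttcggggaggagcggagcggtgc

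DNA replication genes did not follow the mitotic ones. Of 32 tested genes 11 rose and 12 fell, beside 39.4% and 16.0% of all genes. The share of rises was near that of all genes and the share of falls above it. After rescaling 5 rose and 16 fell. MCM6, a subunit of the replicative helicase, had 19.1, 29.9 and 28.9 FPKM in the 24 h wells, against 38.9, 38.9 and 40.7 FPKM in the 2 h wells, a change of -0.61 (SE 0.09, adjusted p = 1.09e-05). MCM2 fell, with a change of -0.21 (SE 0.08, adjusted p = 0.0211), but the call did not hold without well 1 of the 24 h group, where its change was -0.08 (adjusted p = 0.282), or without well 1 or 2 of the 2 h group (adjusted p = 0.0621 and 0.0518). CDT1, a licensing factor, and POLD3, a subunit of DNA polymerase delta, rose by 0.40 (SE 0.07, adjusted p = 1.92e-05) and 0.46 (SE 0.06, adjusted p = 1.89e-06). At 24 h, 20 of the 32 lay below the 24 h controls and 4 above, beside 18.6% and 25.9% of all genes. MCM6 averaged 25.97 ± 5.97 FPKM 24 h after the exposure and 42.1 ± 1.11 FPKM in 24 h controls, a difference of -0.70 (SE 0.09, adjusted p = 3.73e-06).

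Amino acid genes also departed from the controls. Of 20 tested ATF4 targets 2 rose and 6 fell after the exposure, beside 39.4% and 16.0% of all genes. In control wells 9 rose and 2 fell, beside 7.44% and 9.44% of all genes. The difference was lower in 11 and higher in none, beside 10.8% and 30.3% of all genes. ASNS, asparagine synthetase, had 10.1, 6.81 and 9.77 FPKM in the 24 h wells, against 7.71, 8.02 and 7.25 FPKM in the 2 h wells, which overlapped (0.17 (SE 0.24, adjusted p = 0.559)), against 17.3, 16.4 and 19.5 FPKM at 24 h and 6.32, 7.95 and 6.67 FPKM at 2 h in control wells. PHGDH, the first enzyme of serine synthesis, fell, with a change of -0.47 (SE 0.07, adjusted p = 6.06e-06). The amino acid transporters SLC7A5 and SLC38A2 changed by -0.80 (SE 0.10, adjusted p = 3.67e-07) and -0.80 (SE 0.12, adjusted p = 1.08e-05). Of 15 tested aminoacyl-tRNA synthetases 12 rose and 1 fell, beside 39.4% and 16.0% of all genes. These counts were close to the 11 and 1 of the control wells, and after rescaling 5 rose and 1 fell. EPRS, MARS and AARS rose by 0.45, 0.45 and 0.35 log2 units.

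Targets of p53 went both ways. Of 21 tested genes 6 rose and 11 fell, beside 39.4% and 16.0% of all genes, with a median of -0.24. After rescaling 4 rose and 13 fell. CDKN1A, the cyclin-dependent kinase inhibitor p21, had 33.4, 36.7 and 31.9 FPKM in the 24 h wells, against 75.04, 74.1 and 75.8 FPKM in the 2 h wells, a change of -1.12 (SE 0.09, adjusted p = 1.48e-09). GADD45B, a stress sensor that is also an immediate early gene, averaged 29.1 ± 2.87 FPKM at 24 h and 177 ± 20.02 FPKM at 2 h, and PLK3, a stress-induced Polo-like kinase, 0.958 ± 0.382 FPKM and 8.06 ± 0.271 FPKM. Their changes were -2.56 (SE 0.19, adjusted p = 2.27e-10) and -2.23 (SE 0.15, adjusted p = 1.02e-10). CDKN1A ended below the 24 h controls by -0.36 (SE 0.09, adjusted p = 0.00313).

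More targets of TGF-beta and YAP, matrix genes and epithelial genes fell than rose. Of 14 tested targets of TGF-beta and YAP 10 fell and 4 rose, beside 16.0% and 39.4% of all genes. After rescaling 10 fell and 2 rose. ANKRD1, a YAP target, had 7.04, 3.12 and 4.34 FPKM in the 24 h wells, against 69.4, 82.2 and 75.9 FPKM in the 2 h wells, a change of -3.77 (SE 0.42, adjusted p = 1.38e-07). CYR61, a matricellular YAP target, averaged 258 ± 26.3 FPKM at 24 h and 702 ± 30.2 FPKM at 2 h (change -1.44 (SE 0.14, adjusted p = 1.25e-08)), and THBS1, thrombospondin 1, changed by -1.55 (SE 0.16, adjusted p = 3.57e-08).

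Of 30 tested matrix genes 17 fell and 8 rose, beside 16.0% and 39.4% of all genes, and after rescaling 19 fell and 7 rose. Set against the 24 h controls, 16 were lower and 4 higher, beside 18.6% and 25.9% of all genes. PLAU, the urokinase that activates plasmin, had 48.7, 49.2 and 51.5 FPKM in the 24 h wells, against 154, 169 and 169 FPKM in the 2 h wells, a change of -1.70 (SE 0.10, adjusted p = 5.91e-12). FBN2, fibrillin 2, changed by -0.70 (SE 0.08, adjusted p = 2.87e-07) and ITGA3, a laminin-binding integrin, by -0.38 (SE 0.05, adjusted p = 7.43e-07). COL1A1, type I collagen, which is also a fibroblast marker, averaged 91.2 ± 23.9 FPKM at 24 h and 126 ± 5.89 FPKM at 2 h (change -0.50 (SE 0.12, adjusted p = 0.000852)), a call that ended when the 24 h and 2 h groups were fitted alone (adjusted p = 0.0624). The part of the fibroblast markers' lower sum in these falls was not tested. MMP3, the matrix protease stromelysin, ran the other way with 4.13, 2.4 and 1.64 FPKM in the 24 h wells, against 1.04, 1.39 and 1.37 FPKM in the 2 h wells, a change of 0.67 (SE 0.22, adjusted p = 0.0151) that without well 1 of the 24 h group was 0.41 (adjusted p = 0.141) and without well 1 of the 2 h group 0.59 (adjusted p = 0.0573).

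Of 19 tested epithelial junction and keratin genes 10 fell and 3 rose, beside 16.0% and 39.4% of all genes. After rescaling 12 fell and 3 rose. MUC1, a membrane mucin, had 0.813, 0.628 and 1.18 FPKM in the 24 h wells, against 4.87, 4.59 and 5.23 FPKM in the 2 h wells, a change of -1.66 (SE 0.13, adjusted p = 5.68e-10), and KRT80, a keratin, changed by -0.74 (SE 0.06, adjusted p = 2.01e-09). KRT81, a hair keratin, rose with 14.1, 11.3 and 9.42 FPKM in the 24 h wells, against 3.25, 2.85 and 3.22 FPKM in the 2 h wells, a change of 1.6 (SE 0.14, adjusted p = 3.27e-09), and exceeded the 24 h controls by 1.1 (SE 0.14, adjusted p = 1.44e-06). The summed epithelial markers stood at 770.9 to 885.1 FPKM at 24 h and 810.4 to 982.2 FPKM at 2 h.

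The largest rises were few and modest beside the falls, and many rest on wells listed at exactly 0, which in such files can be a failed estimate. Of the 12 named as largest, 6 had a well at 0. FLOT1, which encodes flotillin 1, had 3.83, 3.65 and 3.29 FPKM in the 24 h wells, against 0, 0 and 0 FPKM in the 2 h wells. GATAD2B, a subunit of the NuRD complex, had 3.71, 2.87 and 3.33 FPKM in the 24 h wells, against 0.529, 0.206 and 0 FPKM in the 2 h wells, and KANSL1, a subunit of a histone acetyltransferase complex, had 2.36, 1.24 and 1.25 FPKM in the 24 h wells, against 0.0866, 0 and 0 FPKM in the 2 h wells. The call of KANSL1 did not hold without well 1 of the 24 h group (adjusted p = 0.0792). DTX2, a ubiquitin ligase of the Deltex family, GGNBP2 and SMIM11A each had 1 well of the 2 h group at 0. Of the 198 tested genes with a 0 in any of the 6 libraries 48 were called, 19 higher and 29 lower.

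Among those free of zeros, TXNIP, the inhibitor of thioredoxin, had 13.6, 21.04 and 18.1 FPKM in the 24 h wells, against 6.41, 5.72 and 6.82 FPKM in the 2 h wells, a change of 1.32 (SE 0.15, adjusted p = 2.41e-07). The controls rose too, to 55.2 ± 0.434 FPKM at 24 h against 20.2 ± 1.47 FPKM at 2 h, and the difference between the changes was -0.08 (SE 0.22, adjusted p = 0.792). SLC38A5, a glutamine transporter, had 8.53, 6.68 and 5.74 FPKM in the 24 h wells, against 2.22, 2.11 and 2.701 FPKM in the 2 h wells, a change of 1.24 (SE 0.16, adjusted p = 6.23e-07), while control wells held 2.34 ± 0.427 FPKM at 24 h and 2.28 ± 0.225 FPKM at 2 h. C12orf65, a mitochondrial release factor, had 9.47, 10.3 and 10.1 FPKM in the 24 h wells, against 3.45, 3.604 and 3.67 FPKM in the 2 h wells, a change of 1.26 (SE 0.07, adjusted p = 5.97e-12). GAL, the neuropeptide galanin, had 14.3, 8.76 and 9.26 FPKM in the 24 h wells, against 3.28, 3.99 and 3.05 FPKM in the 2 h wells, a change of 1.38 (SE 0.21, adjusted p = 6.74e-06), with well 1 of the 24 h group above the others.

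Against the 24 h controls the highest genes at 24 h after the exposure were NQO1 (1.81), MMP3, HIST1H2BD, IL11 and SLC38A5, and the lowest DHRS3, SPAG4, BNIP3, PDZK1IP1 and NDRG1. MMP3 had 4.13, 2.4 and 1.64 FPKM 24 h after the exposure, against 0.135, 0.239 and 0.139 FPKM in 24 h controls, a difference of 1.62 (SE 0.22, adjusted p = 5.14e-06). HIST1H2BD, a histone H2B gene, had 12.2, 10.1 and 10.6 FPKM after the exposure, against 3.32, 2.83 and 4.46 FPKM in the controls, a difference of 1.41 (SE 0.14, adjusted p = 6.78e-08). DHRS3, a retinal reductase that retinoic acid induces (chr1:12567910-12618210), had 0.412, 0.919 and 0.6397 FPKM after the exposure, against 9.15, 10.2 and 7.58 FPKM in the controls. Every exposed well of DHRS3 lay below every control well, and the difference was -2.59 (SE 0.15, adjusted p = 2.36e-11). SPAG4, a nuclear envelope protein, had 0.136, 0.5696 and 0.421 FPKM after the exposure, against 4.37, 4.82 and 5.25 FPKM in the controls, and PDZK1IP1, a small membrane protein, 0.4599, 1.54 and 1.76 FPKM against 8.25, 8.25 and 5.67 FPKM.

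The same time course was set against those of the other exposures, each by a test of the difference between changes. Herbal shisha on charcoal had the fewest differences of the 4 conditions: 85 genes differed (0.996%), 57 with a higher change after tobacco (0.668%) and 28 with a lower one (0.328%). That count was 14 without well 1 and 193 without well 3 of the 24 h tobacco group, and 1 when those 4 groups were fitted alone. CXCL8 had 114 FPKM at 24 h and 122 FPKM at 2 h after tobacco shisha, and 74.4, 69.97 and 77.5 FPKM at 24 h, against 144, 151 and 155 FPKM at 2 h, after herbal shisha. The changes differed by 0.91 (SE 0.15, adjusted p = 0.00626), and with the 4 groups fitted alone the adjusted p was 0.078. TMEM217 and CLDN1, the tight junction protein claudin 1, had differences of 0.94 (SE 0.17, adjusted p = 0.00892) and 0.85 (SE 0.15, adjusted p = 0.00892). SPAG4 and MN1, a transcriptional coregulator, had differences of -1.04 (SE 0.19, adjusted p = 0.0103) and -0.77 (SE 0.11, adjusted p = 0.00216).

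Charcoal with no shisha differed in 2201 genes (25.8%), 1298 with a higher change after tobacco shisha on charcoal (15.2%) and 903 with a lower one (10.6%). DHRS3 had 0.412, 0.919 and 0.6397 FPKM in the 24 h wells, against 6.61, 6.704 and 5.899 FPKM in the 2 h wells after tobacco shisha on charcoal, and 14.1, 14.9 and 13.2 FPKM at 24 h against 5.06, 5.59 and 4.42 FPKM at 2 h after charcoal alone. The changes, one down and one up, differed by -3.50 (SE 0.21, adjusted p = 1.97e-10). RARRES1, another gene that retinoic acid induces, differed by -2.30 (SE 0.23, adjusted p = 6.23e-07). CD14, the endotoxin coreceptor that is also an immune marker, averaged 4.404 ± 0.826 FPKM at 24 h and 12.3 ± 1.13 FPKM at 2 h after tobacco shisha on charcoal, and 20.2 ± 2.37 FPKM and 10.05 ± 0.723 FPKM after charcoal alone, a difference of -2.25 (SE 0.18, adjusted p = 1.48e-08). The summed immune markers, of which CD14 and CD68 were tested, stood at 15.1 to 19.9 FPKM at 24 h and 18.9 to 21.7 FPKM at 2 h after tobacco shisha on charcoal, and their part in the result was not tested. MARCO, a scavenger receptor, differed by -2.17 (SE 0.29, adjusted p = 1.67e-05). IL11 and ACTC1, the cardiac actin, fell under both conditions, and less after tobacco shisha on charcoal. Their changes differed by 2.33 (SE 0.40, adjusted p = 0.000207) and 1.80 (SE 0.17, adjusted p = 4.55e-07). IL11 averaged 10.1 FPKM at 24 h and 27.1 FPKM at 2 h after tobacco shisha on charcoal, and 2.48 FPKM and 47.6 FPKM after charcoal alone. ACTC1 averaged 0.530 FPKM and 1.61 FPKM, and 0.0499 FPKM and 5.27 FPKM, in the same order.

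Tobacco shisha on the electronic heater differed in 3533 genes (41.4%), 1994 with a higher change on charcoal (23.4%) and 1539 with a lower one (18.0%). FOS averaged 0.364 FPKM at 24 h and 4.89 FPKM at 2 h on charcoal, and 3.302, 0.921 and 7.38 FPKM at 24 h, against 193, 212 and 274 FPKM at 2 h, on the heater. It fell with both heat sources, and the changes differed by 3.69 (SE 0.41, adjusted p = 8.7e-07). MMP3 went the other way, with 149.9, 99.4 and 173 FPKM at 24 h, against 1.62, 1.39 and 0.235 FPKM at 2 h, on the heater, a difference of -5.46 (SE 0.32, adjusted p = 6.6e-11). HSPA6, a strictly inducible HSP70, averaged 0.227 FPKM at 24 h and 0.323 FPKM at 2 h on charcoal, and 121 ± 116 FPKM and 4.27 ± 1.302 FPKM on the heater. The changes differed by -3.95 (SE 0.71, adjusted p = 0.000154). Its near-identical neighbour HSPA7 differed by -3.61 (SE 0.66, adjusted p = 0.000178), and reads of the pair cannot be split with certainty.

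**Figure D5:**
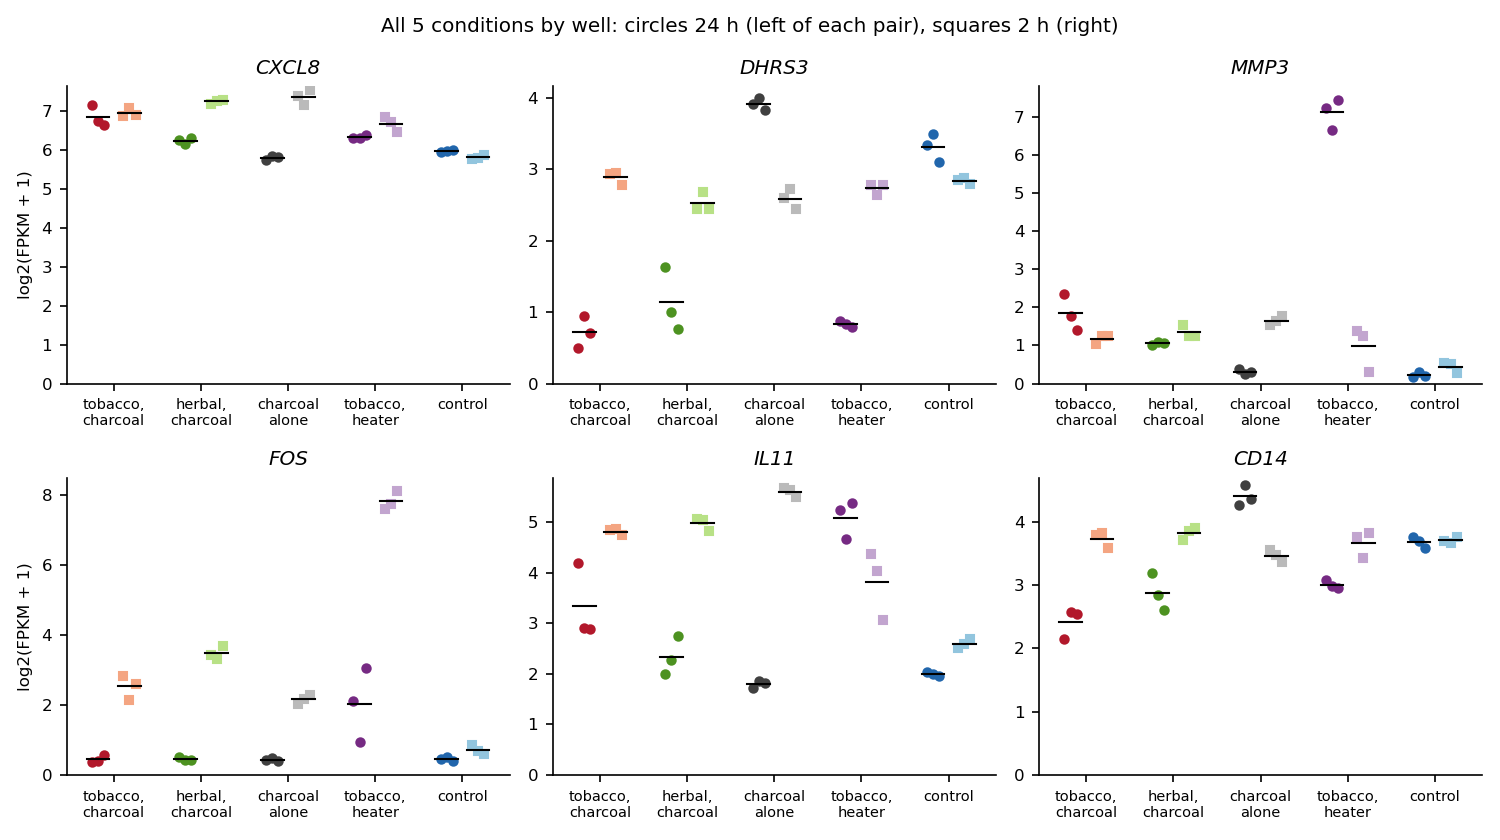
Level of 6 genes, as log2(FPKM + 1), in every well of the 5 conditions (tobacco shisha on charcoal, herbal shisha on charcoal, charcoal alone, tobacco shisha on the electronic heater, control); circles are wells at 24 h and squares wells at 2 h, with bars at the mean of 3 wells. FOS at 2 h and MMP3 at 24 h stand highest on the electronic heater, with means of 226 and 141 FPKM, and DHRS3 at 24 h averages 0.657 FPKM after tobacco shisha on charcoal and 8.99 FPKM in control wells.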

How the data were processed

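The submitters' processing notes name HISAT2 2.1.0, StringTie 1.3.4d and the hg38 build. The deposited files hold FPKM per transcript row in each of the 30 libraries. Counts and read totals are not given, so no count test was run. Depth was estimated from the steps between low FPKM values, as the depth that best brought low rows near whole reads. At that depth 32.2% to 36.7% of low rows of the 6 libraries fell within 0.05 of a whole read. The 10.0% by chance holds for a depth fixed in advance, so the excess over it does not check the estimate. One row per gene name was kept, the one with the highest mean over the 30 libraries. Genes with at least 1 FPKM in 3 or more libraries were fitted as log2(FPKM + 1) with limma 3.58.1 (trend, 10 group means, two-sided, Benjamini-Hochberg over all 8531 genes, call at adjusted p below 0.05), after a check on simulated data. Named genes were the 12 largest called rises and falls with at least 1 FPKM and no overlap between wells, from each list its 3 called genes of lowest p, the 4 or 5 largest in each other comparison and a set list of responses; CRYAB, DNAJB1, DUSP10, HK2, KLF6, LBH and others outside this rule were chosen after their values were seen. The members and lists were chosen with earlier results of these data known. Alternatives were a pseudocount of 0.1, no filter, the compared groups alone, a replicate block, rescaling by the median of ratios, summed rows, a 2-fold minimum, each library left out, and, chosen after seeing the data, leaving out genes listed at 0. Some named genes are not reported here. Promoters and coordinates come from RefSeq (GRCh38.p14). Python 3.11.15, pandas 2.3.3 and matplotlib 3.10.9 were used.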

Additional observations from a re-analysis of the deposited data

Results flagged for a closer look

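Results stand here because the change between 24 h and 2 h after tobacco shisha on charcoal differed from the change under another condition, by limma's test of that difference. Each value is the log2 change after tobacco shisha on charcoal minus that of the condition named, with 3 wells in each of the 4 groups.

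Against control wells, the immediate early genes and their brakes had differences of -5.13 for NR4A1, -4.28 for ATF3, -3.85 for HES1, -3.65 for EGR1, -3.13 for JUNB, -3.0 for DUSP5 and -1.60 for ZFP36. Among mediators and AHR targets the difference was -0.61 for IL6, 0.82 for CXCL1 and -0.98 for CYP1B1. In the NRF2, chaperone and proteasome lists it was 1.81 for NQO1, 0.56 for PRDX1, -0.52 for TXNRD1, 1.11 for HSP90AA1, 0.91 for FKBP4 and 0.61 for PSMD3. SLC30A1, the zinc exporter, had 16.5, 16.04 and 15.9 FPKM in the 24 h wells, against 48, 51.5 and 49.4 FPKM in the 2 h wells, and its difference was -1.59. Hypoxia genes had differences of -2.13 for BNIP3, -2.58 for VEGFA and -2.05 for NDRG1, and ASNS and CDKN1A had -1.06 and -1.20. Cell cycle genes had 0.82 for TTK, 0.84 for AURKA, 0.59 for PLK1, 1.35 for CCNF and -0.68 for MCM6. The remaining genes had -1.72 for CYR61, -1.27 for PLAU, 0.92 for KRT81, 1.22 for SLC38A5, 1.41 for HIST1H2BD and -2.64 for DHRS3.

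Against charcoal alone, the difference was -3.50 for DHRS3, -2.30 for RARRES1, -2.25 for CD14, -2.17 for MARCO, 2.33 for IL11, 1.99 for MMP3 and 1.80 for ACTC1. Against herbal shisha on charcoal, it was 0.91 for CXCL8, 0.94 for TMEM217, 0.85 for CLDN1, 0.85 for IL18, -1.04 for SPAG4, -0.77 for MN1 and -0.73 for APLN. The calls of IL18 and APLN against herbal shisha did not hold without well 1 of the 24 h tobacco group (adjusted p = 0.0875 and 0.162) and were lost without several other single wells. Against tobacco shisha on the electronic heater, it was 3.69 for FOS, -5.46 for MMP3, -3.95 for HSPA6 and -3.61 for HSPA7. On the heater the 24 h wells of HSPA6 ranged widely, at 103, 14.9 and 244 FPKM. The part of that spread in the difference was not tested.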

How the results depend on the processing

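No named gene's called change reversed its sign under any alternative run, but rescaling turned the balance of rises and falls over all genes and in several lists. Of 131 named genes, 120 or more stayed on the same side of the threshold for the change over 24 h after tobacco shisha on charcoal under each alternative, except the test for a change beyond 2-fold rather than for any change, where 92 lost their call. That test left 70 of 4726 genes, 69 of them lower. With the 24 h and 2 h groups fitted alone, COL1A1, DTX2, GGNBP2, MCM2, MMP3, MT1L, RPL26, RPS19 and SMIM11A were no longer called. In that fit HSPA1A gained a call. Leaving out 1 library at a time gave 4135 to 4518 genes for that change, 3012 to 3466 for its difference from the control wells, 1602 to 2314 from charcoal alone, 14 to 193 from herbal shisha, 3042 to 3869 from the electronic heater, and 2977 to 3729 for the comparison with the 24 h controls. The count against herbal shisha (85) was 46 with no filter and 1 with its 4 groups fitted alone, so it depends on pooling the spread over all groups. Same-numbered wells of the 24 h and 2 h groups after tobacco shisha on charcoal did not deviate together (correlations of -0.0589, -0.0066 and 0.0083). With so few wells in a group, these values cannot decide whether the numbers pair the samples. Wells of the other conditions were not compared in this way. A replicate block gave 4717, 3495, 2232, 99, 3537 and 3814 genes, in the order above. Rescaling turned the split of the calls to 2050 higher and 2112 lower for the change itself, 1394 and 1508 for the difference from the controls, and 1813 and 1870 for the comparison with the 24 h controls. After rescaling, the changes of DNAJB11, GPI, LDHB, PDIA6 and RPS19 were no longer called. FPKM carry no read totals, and genes below 1 FPKM could not be judged at this depth.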

Other observations

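Few of the tested ribosomal protein genes were called over the 24 h after tobacco shisha on charcoal, beside 55.4% of all genes. Of 75 listed only 30 were tested, so most of the class could not be judged. Of the 30 tested 3 rose and 1 fell, and after rescaling 1 rose and 7 fell. RPL26, a large-subunit protein, and RPS19, a small-subunit protein, changed by 0.79 and 0.25, RPL7A by -0.25. Leaving out well 2 of the 2 h group ended the call of RPL26, and leaving out well 2 of the 24 h group that of RPL7A. Of 48 tested respiratory chain subunits 15 rose and 7 fell, beside 39.4% and 16.0% of all genes, and after rescaling 8 rose and 16 fell. NDUFS3, a subunit of complex I, averaged 82.4 ± 3.03 FPKM at 24 h and 59.3 ± 3.23 FPKM at 2 h, a change of 0.47 (SE 0.06, adjusted p = 3.57e-07), and NDUFS1 and SDHB changed by 0.33 and 0.33. Of 21 tested ribosome biogenesis genes 8 rose and 2 fell, a share of rises near that of all genes, and after rescaling 4 rose and 5 fell. WDR12, WDR75 and POLR1A changed by 0.56, 0.52 and 0.36.

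Other groups were mixed. Of 23 tested autophagy and lysosome genes 10 rose and 5 fell, a share of rises near the 39.4% of all genes, and after rescaling 8 rose and 8 fell. ATG16L1, which places the lipidation of LC3, averaged 11.4 ± 0.802 FPKM at 24 h and 7.95 ± 0.3302 FPKM at 2 h, a change of 0.47 (SE 0.06, adjusted p = 1.4e-06). ATP6V1A, a subunit of the proton pump, changed by 0.48 and NPC2, a lysosomal carrier of cholesterol, by -0.34. Of 15 tested interferon genes 3 rose and 4 fell, beside 39.4% and 16.0% of all genes, and after rescaling 2 rose and 5 fell. Set against the 24 h controls, 8 were lower and 1 higher, beside 18.6% and 25.9% of all genes. IFITM3, a membrane protein that restricts viral entry, averaged 175 ± 19.6 FPKM at 24 h and 247 ± 14.8 FPKM at 2 h, a change of -0.50 (SE 0.07, adjusted p = 7.73e-06), and IFITM2 and B2M changed by -0.36 and -0.44. The metallothionein list held 7 tested genes, of which 1 rose and 1 fell, beside 39.4% and 16.0% of all genes. After rescaling none rose and 2 fell. SLC30A1, the zinc exporter, fell (change -1.56 (SE 0.13, adjusted p = 1.37e-09)), while MT2A, an abundant metallothionein, had 449.8, 372 and 433 FPKM in the 24 h wells, against 414, 426 and 323 FPKM in the 2 h wells, which overlapped. MT1L was the member that rose, but its near-identical relatives make its reads uncertain and several single wells decided its call.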
